A study of Mus musculus with 3 samples.

Results

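The genes examined here are the mouse inhibitors of cyclin-dependent kinases (CDKs): Cdkn1a, Cdkn1b, Cdkn1c, Cdkn2a, Cdkn2b, Cdkn2c and Cdkn2d. They were chosen by symbol and are 7 of the 27998 genes in the count matrix. Single cells from testes of males labelled as postnatal day 3, with testes taken at 3.5 days postpartum by the protocol, were captured with the 10x Genomics 3′ v2 chemistry, in 1 library per genotype. The Cdk2-Y15S library came from animals with both Cdk2 copies of the YS allele (Cdk2 YS/YS), the Cdk2-HET library from animals with a YS and a wild-type copy (Cdk2 +/YS), and the Cdk2-WT library from Cdk2 +/+ animals. All animals were untreated, came from crosses of Cdk2 +/YS carriers, and shared a mixed background of the FVB/NJ and the B6(Cg)-Tyrc-2J/J strain. The allele was inherited, so the somatic cells of a mutant testis carried it as well as the germ cells. The labels do not state how many animals went into a library.

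CDK inhibitors are small proteins that bind CDKs or their complexes with cyclins and hold back the cell cycle. The Cip/Kip group, encoded by Cdkn1a, Cdkn1b and Cdkn1c, binds cyclin-CDK complexes, those of CDK2 among them. The INK4 group, encoded by Cdkn2a, Cdkn2b, Cdkn2c and Cdkn2d, binds the kinases CDK4 and CDK6 and keeps them from their D-type cyclins. Tyrosine 15 of CDK2, which the allele's name points to, is the site of an inhibitory phosphate, a brake on the kinase that is separate from these proteins. In mice, Cdkn1b is known for restraining Sertoli cell division, Cdkn1c for being imprinted and expressed from the maternal copy, and Cdkn2c with Cdkn2d for their joint need in spermatogenesis.

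Cdkn1a lies on chromosome 17 (29090976 to 29100727, plus strand) and Cdkn1b on chromosome 6 (134920401 to 134925513, plus strand). Cdkn1c lies on chromosome 7 (143458339 to 143461050, minus strand), and Cdkn2d on chromosome 9 (21288410 to 21291407, minus strand). Chromosome 4 holds the other members on its minus strand: Cdkn2a (89274471 to 89294653) beside Cdkn2b (89306299 to 89311039), and Cdkn2c (109660876 to 109667189). These are the GENCODE M21 gene models on GRCm38, the assembly also called mm10. Cdkn2a has a pair of start sites. Transcripts from the upstream one encode Arf, a protein that binds Mdm2 and stabilises p53, and transcripts from the downstream one encode the INK4A inhibitor. Both share their 3′ exons, so 3′ counts cannot tell the products apart.

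RefSeq (GRCm38.p6) held promoter windows, from 250 bases before to 50 bases after a start site, for 6 of the 7 members, all but Cdkn1c. Each window was searched on both strands for a p53 half-site core pair (CATGNNNNNNCATG), for E2F words (TTTCCCGC, TTTCGCGC, TTTGCCGC or TTTGGCGC) and for a cell cycle homology region word (TTTGAA or TTTAAA). Among all 32851 RefSeq promoters searched, 0.712% held the p53 core pair, 2.26% an E2F word and 27.6% a cell cycle homology region word. Cdkn1a, Cdkn2a and Cdkn2c had 2 windows each. The upstream Cdkn1a window is shown because this gene, known as a p53 target, differed between germ cells of the 2 homozygous genotypes, with its core pair in capitals. The Cdkn2a windows are shown because they mark the start sites that the counts merge, with the E2F word of the upstream window in capitals, and the upstream Cdkn2c and the Cdkn2d window because these genes stood higher together in cells with mitotic transcripts.
Cdkn1a upstream start, chr17:29090729-29091028, plus strand: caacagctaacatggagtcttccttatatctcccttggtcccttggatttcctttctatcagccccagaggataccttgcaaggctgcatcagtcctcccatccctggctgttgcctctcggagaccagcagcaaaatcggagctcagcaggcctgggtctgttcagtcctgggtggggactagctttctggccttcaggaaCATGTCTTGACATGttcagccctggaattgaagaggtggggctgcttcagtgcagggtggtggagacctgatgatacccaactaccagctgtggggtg
Cdkn2a upstream start, chr4:89294570-89294869, minus strand: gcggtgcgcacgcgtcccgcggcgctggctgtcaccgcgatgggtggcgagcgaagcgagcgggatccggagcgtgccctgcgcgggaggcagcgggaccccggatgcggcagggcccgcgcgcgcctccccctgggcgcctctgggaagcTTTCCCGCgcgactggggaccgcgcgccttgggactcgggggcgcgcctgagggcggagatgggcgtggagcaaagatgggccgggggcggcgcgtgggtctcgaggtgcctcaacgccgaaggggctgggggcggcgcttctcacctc
Cdkn2a downstream start, chr4:89282143-89282442, minus strand: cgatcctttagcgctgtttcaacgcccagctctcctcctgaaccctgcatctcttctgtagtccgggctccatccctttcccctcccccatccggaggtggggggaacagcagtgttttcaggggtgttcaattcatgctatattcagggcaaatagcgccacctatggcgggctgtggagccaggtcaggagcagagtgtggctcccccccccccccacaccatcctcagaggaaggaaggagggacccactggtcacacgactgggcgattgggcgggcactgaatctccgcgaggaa
Cdkn2c upstream start, chr4:109666707-109667006, minus strand: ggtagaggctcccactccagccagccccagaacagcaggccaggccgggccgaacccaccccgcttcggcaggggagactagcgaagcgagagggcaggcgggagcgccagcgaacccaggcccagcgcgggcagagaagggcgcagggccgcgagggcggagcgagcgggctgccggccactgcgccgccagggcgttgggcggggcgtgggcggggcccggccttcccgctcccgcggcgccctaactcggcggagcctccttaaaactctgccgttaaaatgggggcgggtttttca
Cdkn2d, chr9:21291160-21291459, minus strand: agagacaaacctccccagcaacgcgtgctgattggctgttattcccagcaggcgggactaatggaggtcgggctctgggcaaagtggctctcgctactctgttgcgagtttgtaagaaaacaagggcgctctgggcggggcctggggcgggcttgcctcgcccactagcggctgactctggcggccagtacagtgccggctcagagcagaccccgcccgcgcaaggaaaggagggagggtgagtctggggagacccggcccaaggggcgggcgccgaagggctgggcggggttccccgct
The core pair of Cdkn1a begins 48 bases before the upstream start site (-48), and the E2F word of Cdkn2a 99 bases before its upstream one (-99). The downstream windows of Cdkn1a (chr17:29093519-29093818), Cdkn2a and Cdkn2c (chr4:109665323-109665622), the upstream Cdkn2c window and the Cdkn2d window held none of these words. Cell cycle homology region words were found in the Cdkn2b window (-161) and the Cdkn1b window (-15). A match describes the letters only.

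The libraries held 4403 cells in Cdk2-Y15S, 4958 in Cdk2-HET and 5061 in Cdk2-WT, with 28651691, 32025077 and 30624473 unique molecular identifiers (UMIs) in all and a median of 5723, 5908 and 5570 UMIs a cell. The libraries shared between 27 and 32 cell barcodes in pairs, and 0 among the deposited germ cells. The submitters deposited germ cells in clusters A to E, 72 of them from Cdk2-Y15S and 69 from Cdk2-WT. To include Cdk2-HET, germ marker cells were taken by Ddx4, Dazl and Mael: at least 3 UMIs, with at least 2 of these genes detected. This gave 114, 68 and 123 cells, among them all 72 and 69 deposited germ cells. Levels are given as CPM, the UMIs of a gene over all UMIs of the summed cells, scaled to 1000000. Sertoli cells, the nurse cells of the cords, were taken by their markers Amh, Sox9, Cldn11 and Inha (1586, 2169 and 2503 cells), and mesenchymal cells by the collagen and matrix genes Col1a1, Col1a2, Col3a1 and Dcn (2464, 2518 and 2230 cells). The 7 markers summed for each name include the genes of its rule, so the sums describe the classes and do not test the names. Germ markers summed to 1660, 2017 and 2012 CPM in germ marker cells. In Sertoli and mesenchymal cells, from which germ cells had been taken out, they summed to at most 14.9 and 7.86 CPM. Mesenchymal markers summed to 398 CPM in deposited Cdk2-Y15S germ cells and 194 CPM in Cdk2-WT ones, and 33 of 72 (45.8%) and 9 of 69 (13.0%) of these cells passed the collagen rule.

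The members fell into different patterns over the cell classes. Germ cells stood highest in Cdkn2a, Cdkn2b and Cdkn1a, mesenchymal cells in Cdkn1c, and both somatic classes stood above germ cells in Cdkn1b, Cdkn2c and Cdkn2d. The classes were compared with the 3 libraries as replicates and the library as a block (edgeR quasi-likelihood test, Benjamini-Hochberg adjustment over all genes). All 7 members passed the test between germ and Sertoli cells, 4 higher and 3 lower in germ cells, where 33.1% of 15281 genes were called higher and 33.2% lower. All 7 also passed between germ and mesenchymal cells, 3 higher and 4 lower, against 32.7% and 36.3% of all genes. Scaling by total UMIs in place of trimmed means moved the median of all genes by 0.45 (germ over Sertoli), 0.57 (germ over mesenchymal) and -0.12 (mesenchymal over Sertoli) on the log2 scale. It turned the split of calls over Sertoli cells into 6786 higher and 3447 lower, in place of 5063 and 5072, and that over mesenchymal cells into 6992 and 3662, in place of 5000 and 5550. Every member kept its direction in both germ contrasts under that scaling.

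Cdkn2a separated germ cells from somatic cells most. Its level was 209 CPM in Cdk2-Y15S, 181 CPM in Cdk2-HET and 145 CPM in Cdk2-WT germ marker cells, against 0.369, 0.277 and 0.252 CPM in Sertoli cells (4 UMIs in each library). The germ level was higher in 3 of 3 libraries, with a log2 difference of 8.70 (SE 0.22, edgeR adjusted p = 1.12e-11). At least 1 Cdkn2a UMI was found in 86.8%, 79.4% and 70.7% of germ marker cells, which had a median of 15148, 12495 and 13465 UMIs, and in 0.252%, 0.184% and 0.160% of Sertoli cells, with a median of 6124.5, 6271 and 6065 UMIs. Mesenchymal cells held 1.27, 1.18 and 1.30 CPM, from 18, 18 and 16 UMIs. That was 2.13 above Sertoli cells on the log2 scale (SE 0.35, edgeR adjusted p = 0.000148) and 6.57 below germ cells (SE 0.18, edgeR adjusted p = 1.66e-11). No Cdkn2a UMI was seen in cells passing the endothelial or macrophage marker rule, which there allows up to 6.94 to 13.9 CPM and 14.1 to 24.1 CPM.

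Cdkn2b, the neighbour of Cdkn2a, was also highest in germ cells, at far fewer molecules. It stood at 8.10, 8.03 and 15.6 CPM in Cdk2-Y15S, Cdk2-HET and Cdk2-WT germ marker cells (14, 7 and 24 UMIs), at 0.423, 0.197 and 0.243 CPM in mesenchymal cells (6, 3 and 3 UMIs), and at 1.84, 2.21 and 1.57 CPM in Sertoli cells. Germ cells were above Sertoli cells by 2.05 on the log2 scale (SE 0.40, edgeR adjusted p = 0.000484) and above mesenchymal cells by 4.58 (SE 0.50, edgeR adjusted p = 2.34e-06). Unlike Cdkn2a, Cdkn2b was lower in mesenchymal than in Sertoli cells, by a log2 value of -2.53 (SE 0.47, edgeR adjusted p = 0.000387). The somatic levels rest on 3 to 32 UMIs a library.

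Cdkn1a, which stops the cycle under p53 and other signals, reached 34.1, 91.8 and 95.5 CPM in Cdk2-Y15S, Cdk2-HET and Cdk2-WT germ marker cells, against 8.03, 13.4 and 7.62 CPM in mesenchymal and 12.3, 15.2 and 12.9 CPM in Sertoli cells. Germ cells were higher in 3 of 3 libraries, by 1.93 over Sertoli cells (SE 0.23, edgeR adjusted p = 6.76e-06) and 2.30 over mesenchymal cells (SE 0.24, edgeR adjusted p = 1.44e-06) on the log2 scale. The somatic classes did not differ past the threshold (log2 -0.37 mesenchymal over Sertoli, edgeR adjusted p = 0.162). The mesenchymal level came from few cells. Between 1.83% and 2.23% of mesenchymal cells had a Cdkn1a UMI, and the 5 richest held 43.0% of the UMIs in Cdk2-Y15S, 55.4% in Cdk2-HET and 56.4% in Cdk2-WT, with up to 21, 37 and 24 UMIs in a cell.

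Cdkn1b, Cdkn2c and Cdkn2d were the members called lower in germ cells than in both somatic classes. Cdkn2c stood at 10.99, 19.5 and 11.7 CPM in Cdk2-Y15S, Cdk2-HET and Cdk2-WT germ marker cells, at 80.7, 93.6 and 80.7 CPM in mesenchymal cells and at 58.7, 56.5 and 58.1 CPM in Sertoli cells. The germ level was lower by a log2 value of -2.57 against Sertoli cells (SE 0.19, edgeR adjusted p = 6.21e-08) and -3.24 against mesenchymal cells (SE 0.18, edgeR adjusted p = 5.03e-09). Mesenchymal cells were above Sertoli cells by 0.67 (SE 0.12, edgeR adjusted p = 0.000346), so the classes fell into a full order for this gene. Cdkn2d stood at 15.6, 19.5 and 18.8 CPM in germ marker cells, 36.2, 47.5 and 35.8 CPM in mesenchymal cells and 43.2, 50.8 and 52.98 CPM in Sertoli cells, with germ cells lower by log2 -1.72 against mesenchymal (SE 0.18, edgeR adjusted p = 1.91e-06) and -1.90 against Sertoli cells (SE 0.18, edgeR adjusted p = 7.50e-07). Cdkn1b rested on 3, 4 and 16 UMIs in germ marker cells (1.73, 4.59 and 10.4 CPM), against 14.2, 12.5 and 13.3 CPM in mesenchymal and 11.7, 12.04 and 15.7 CPM in Sertoli cells. It was lower in germ cells by log2 -1.87 against mesenchymal (SE 0.35, edgeR adjusted p = 0.000333) and -1.72 against Sertoli cells (SE 0.35, edgeR adjusted p = 0.000758). By counting error, its Cdk2-WT germ interval (5.94 to 16.9 CPM) overlapped those of mesenchymal (11.3 to 15.5 CPM) and Sertoli cells (13.8 to 17.7 CPM). The Cdk2-HET intervals overlapped too, and the Cdk2-Y15S ones did not. Mesenchymal and Sertoli cells did not differ past the threshold in Cdkn2d (log2 -0.18, edgeR adjusted p = 0.232) or Cdkn1b (log2 0.16, edgeR adjusted p = 0.522).

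The lists of genes that act with the inhibitors were set beside the shares of all genes called, which were 33.1% higher and 33.2% lower over Sertoli cells and 32.7% and 36.3% over mesenchymal cells. Of 9 partner kinases and cyclins tested, 5 were called higher and 2 lower in germ than in Sertoli cells, and 6 higher and 2 lower than in mesenchymal cells, with the D-type cyclin Ccnd1 highest in germ cells (log2 5.75 over Sertoli cells, SE 0.19, edgeR adjusted p = 6.21e-11). Counts near those shares were found for the p53 targets over Sertoli cells: of 15, 5 were higher and 5 lower in germ than in Sertoli cells, and 7 higher and 5 lower than in mesenchymal cells, among them Pmaip1 (log2 8.11 over Sertoli cells, SE 0.27, edgeR adjusted p = 5.43e-11). Of 19 transcriptional regulators of the inhibitors, 8 were higher and 8 lower over Sertoli cells, and 10 and 6 over mesenchymal cells. Of 9 neighbours of Cdkn1c in its imprinted region, 5 were higher and 1 lower in mesenchymal than in Sertoli cells, where 30.4% of all genes were called higher and 28.4% lower, with Igf2, a growth factor (log2 6.48, SE 0.21, edgeR adjusted p = 1.80e-11), and the non-coding RNA H19 (log2 6.06, SE 0.16, edgeR adjusted p = 9.19e-12) higher together with Cdkn1c.

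**Figure D1:**
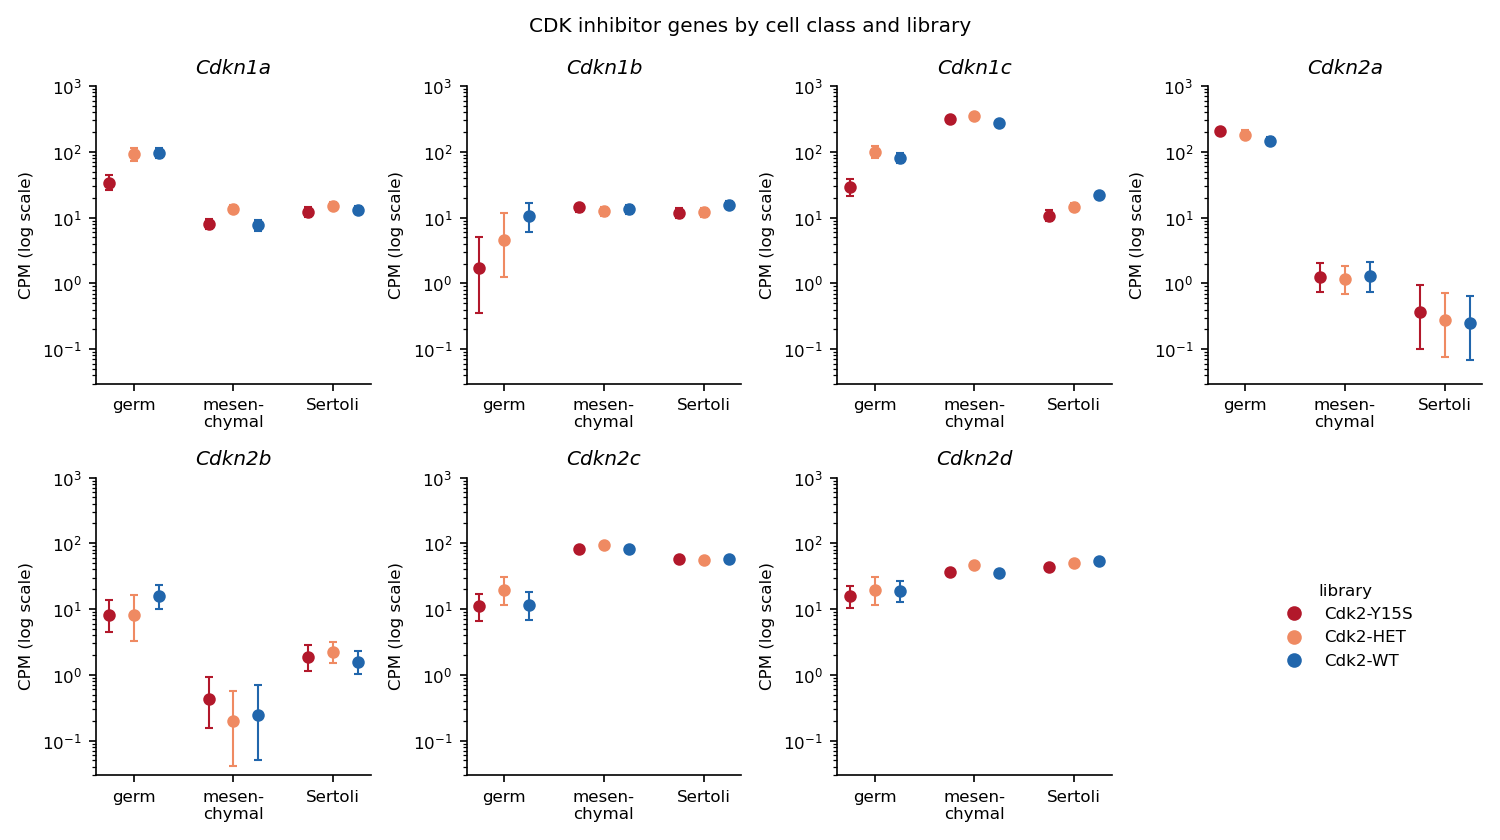
Levels of the 7 CDK inhibitor genes in CPM (log axis) in germ marker, mesenchymal and Sertoli cells of the Cdk2-Y15S, Cdk2-HET and Cdk2-WT libraries; each point is the sum over a class of 1 library and each bar its exact Poisson 95% interval, counting error only. Cdkn2a is above 140 CPM in all 3 germ sums and below 1.4 CPM in all somatic sums, while Cdkn1c is highest in mesenchymal cells (270 to 349 CPM).

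Cdkn1c was the member with the highest mesenchymal level among the classes: 319, 349 and 270 CPM in Cdk2-Y15S, Cdk2-HET and Cdk2-WT mesenchymal cells, against 10.7, 14.5 and 21.6 CPM in Sertoli cells. The difference was 4.50 on the log2 scale (SE 0.28, edgeR adjusted p = 6.54e-09), higher in 3 of 3 libraries, and 4 of the 7 members passed the test, against 30.4% of all genes called higher and 28.4% called lower in mesenchymal cells. Germ marker cells lay between, at 28.9, 101 and 81.8 CPM, which is 1.62 above Sertoli cells (SE 0.29, edgeR adjusted p = 0.000241) and 2.88 below mesenchymal cells (SE 0.28, edgeR adjusted p = 7.15e-07). A Cdkn1c UMI was found in 57.6%, 60.3% and 52.5% of mesenchymal cells and in 3.28%, 3.78% and 4.59% of Sertoli cells.

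Most of the Sertoli signal of Cdkn1c sat in a handful of cells that also passed the marker rule of another cell type, chiefly fetal Leydig cells, the steroid-producing cells of the interstitium. Of the Sertoli UMIs of Cdkn1c, 83 of 116 in Cdk2-Y15S, 151 of 210 in Cdk2-HET and 257 of 344 in Cdk2-WT came from 23, 35 and 43 such cells, whose level was 481, 507 and 814 CPM. The other 1563, 2134 and 2460 Sertoli cells held 3.09, 4.17 and 5.59 CPM. Without the somatic cells of another marker rule, germ cells were above Sertoli cells in Cdkn1c by 3.47 and mesenchymal cells by 6.35 on the log2 scale, so both differences were larger among cells with the markers of 1 class.

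Within the mesenchyme, Cdkn1c divided the cells that carried smooth muscle genes from the rest. Non-myoid mesenchymal cells, with fewer than 2 UMIs of the peritubular myoid genes Acta2, Myh11, Actg2 and Cnn1, held 448, 543 and 380 CPM in Cdk2-Y15S, Cdk2-HET and Cdk2-WT, and myoid cells, with at least 5 such UMIs, held 63.9, 73.8 and 102 CPM. The ratio of the non-myoid cells to the myoid cells was 2.81, 2.88 and 1.90 on the log2 scale. Cells passing the fetal Leydig rule (92, 97 and 89 cells) held 372, 346 and 493 CPM. Of these, 48, 45 and 26 were also mesenchymal cells and 22, 32 and 39 also Sertoli cells. Mesenchymal cells that passed another marker rule held 221, 281 and 135 CPM, against 481, 507 and 814 CPM in such Sertoli cells. Endothelial cells (49, 44 and 29 cells) held 76.3, 188 and 46.3 CPM, and macrophages (11, 26 and 17 cells) 32.2, 75.3 and 47.4 CPM. The Leydig and non-myoid mesenchymal cells were therefore the richest in Cdkn1c in each library, and the macrophage values rest on 4, 16 and 6 UMIs.

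**Figure D2:**
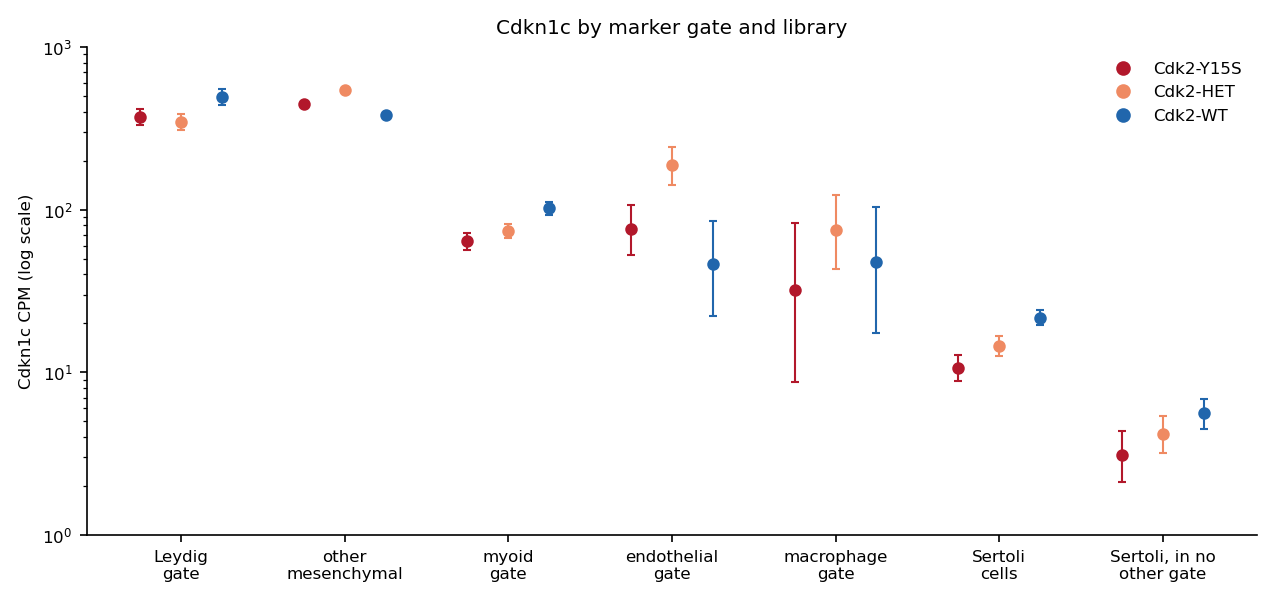
Cdkn1c in CPM (log axis) in cells grouped by marker rules, in the Cdk2-Y15S, Cdk2-HET and Cdk2-WT libraries, with exact Poisson 95% intervals that cover counting error only; other mesenchymal means the non-myoid cells. Non-myoid mesenchymal and Leydig cells lie between 346 and 543 CPM in every library, and myoid cells between 63.9 and 102 CPM.

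The other members showed smaller divisions among the somatic cells. Cdkn2c was at 113, 117 and 102 CPM in Cdk2-Y15S, Cdk2-HET and Cdk2-WT myoid cells, against 64.7, 73.0 and 69.7 CPM in the non-myoid mesenchymal cells, the opposite order to Cdkn1c. The few mesenchymal molecules of Cdkn2a came more from myoid cells (9, 11 and 12 UMIs) than from non-myoid cells (5, 5 and 3 UMIs), although the myoid cells were fewer. Cdkn1a stood at 153, 51.8 and 31.6 CPM in macrophages, from 19, 11 and 4 UMIs, and no endothelial UMI of Cdk2-HET was of Cdkn1a, which allows up to 9.90 CPM, against 27.8 CPM in Cdk2-Y15S and 9.26 CPM in Cdk2-WT endothelial cells. No UMI of Cdkn2b was found in Leydig, endothelial or macrophage cells, which in Leydig cells allows up to 3.33 to 4.44 CPM.

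The inhibitors were next set against the state of the cell cycle. Sertoli and mesenchymal cells with at least 5 UMIs of 10 mitotic genes (among them Mki67, Top2a and Cdk1) are called mitotic here, and those with 0 such UMIs non-mitotic. There were 310, 461 and 386 mitotic mesenchymal cells in Cdk2-Y15S, Cdk2-HET and Cdk2-WT, against 1501, 1284 and 1245 non-mitotic ones, and 519, 738 and 804 mitotic Sertoli cells, against 583, 723 and 938 non-mitotic ones. Near the limit, with 4 or 5 mitotic UMIs, lay 45, 42 and 51 mesenchymal cells and 57, 89 and 80 Sertoli cells. In mesenchymal cells 4 members rose (Cdkn2c, Cdkn2d, Cdkn2a and Cdkn1b) and Cdkn1c fell, where 20.3% of 12602 genes were called higher and 19.1% lower in mitotic cells. In Sertoli cells 3 rose (Cdkn2c, Cdkn2d and Cdkn1b) and 2 fell (Cdkn1a and Cdkn1c), where 11.1% of genes were called higher and 13.3% lower. Without Sertoli cells that also passed another marker rule, 2 rose (Cdkn2c and Cdkn2d) and 1 fell (Cdkn1a). In that setting 1254 of 12519 genes were called higher and 1460 lower. The fits took the 3 libraries as replicates and the library as a block.

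Cdkn2c was the member with the largest difference in both classes. Mitotic mesenchymal cells held 348, 323 and 275 CPM in Cdk2-Y15S, Cdk2-HET and Cdk2-WT, against 22.8, 17.3 and 14.3 CPM in non-mitotic ones, a log2 difference of 4.04 (SE 0.11, edgeR adjusted p = 2.92e-17). Mitotic Sertoli cells held 130, 125 and 139 CPM, against 9.05, 7.88 and 5.91 CPM in non-mitotic ones, a log2 difference of 4.10 (SE 0.15, edgeR adjusted p = 6.64e-15). The difference between the classes in this response was -0.06 (mesenchymal minus Sertoli, edgeR adjusted p = 0.908).

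Cdkn2d rose with mitotic transcripts too, and more so in the mesenchyme. Its levels were 130, 134 and 109 CPM in mitotic mesenchymal cells of Cdk2-Y15S, Cdk2-HET and Cdk2-WT, against 16.1, 21.4 and 10.5 CPM in non-mitotic ones (log2 2.87, SE 0.15, edgeR adjusted p = 1.94e-12). In Sertoli cells they were 61.2, 70.6 and 81.5 CPM against 31.7, 35.5 and 36.9 CPM (log2 0.99, SE 0.14, edgeR adjusted p = 2.62e-05). The mesenchymal response exceeded the Sertoli one by 1.88 on the log2 scale (SE 0.21, edgeR adjusted p = 3.68e-06), where 8.89% of genes had a response called larger and 2.33% a response called smaller in mesenchymal cells.

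Cdkn2a, though low in mesenchymal cells, differed between the states of mesenchymal cells. Mitotic mesenchymal cells held 9, 12 and 13 UMIs in Cdk2-Y15S, Cdk2-HET and Cdk2-WT (3.55, 3.19 and 4.49 CPM), against 4, 4 and 0 UMIs in the more numerous non-mitotic cells, a log2 difference of 3.13 (SE 0.58, edgeR adjusted p = 0.000210). Germ markers summed to 7.49, 9.05 and 7.94 CPM in the mitotic and 6.63, 6.89 and 6.67 CPM in the non-mitotic mesenchymal cells. In Sertoli cells Cdkn2a had 1, 3 and 1 UMIs against 2, 0 and 2 UMIs (edgeR adjusted p = 0.968). The difference in response between the classes did not pass the test (edgeR adjusted p = 0.146).

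Among the Cip/Kip genes, Cdkn1b was modestly higher in mitotic cells, with 20.9, 19.4 and 20.01 CPM in mitotic mesenchymal cells of Cdk2-Y15S, Cdk2-HET and Cdk2-WT, against 13.1, 10.1 and 13.2 CPM in non-mitotic ones (log2 0.66, SE 0.16, edgeR adjusted p = 0.00253). Its Sertoli difference of 0.45 (SE 0.16, edgeR adjusted p = 0.0472) was lost without the block (adjusted p = 0.190), in DESeq2 (adjusted p = 0.188) and without any 1 library (adjusted p = 0.0637 without Cdk2-Y15S, 0.383 without Cdk2-HET, 0.0589 without Cdk2-WT). Cdkn1a fell in mitotic Sertoli cells, to 11.3, 9.12 and 7.51 CPM, against 12.7, 18.5 and 20.3 CPM in non-mitotic ones (log2 -0.98, SE 0.20, edgeR adjusted p = 0.000988), but missed the threshold without Cdk2-WT (log2 -0.69, adjusted p = 0.0643). Its mitotic Sertoli level rested on 49, 53 and 45 UMIs, with 36.7%, 43.4% and 68.9% of them in the 5 richest cells. In mitotic mesenchymal cells it rested on 25, 39 and 27 UMIs, with 40.0%, 71.8% and 59.3% in the 5 richest. Its mesenchymal difference of 0.56 did not pass the test (edgeR adjusted p = 0.0771), though it did without Cdk2-Y15S (adjusted p = 0.0159). The responses of the classes differed by 1.54 (SE 0.32, edgeR adjusted p = 0.00273), which missed the threshold without Cdk2-HET (1.33, adjusted p = 0.0843) or without Cdk2-WT (1.22, adjusted p = 0.0616).

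Cdkn1c was lower in mitotic mesenchymal cells, with 223, 234 and 199 CPM in Cdk2-Y15S, Cdk2-HET and Cdk2-WT, against 357, 413 and 303 CPM in non-mitotic ones (log2 -0.78, SE 0.10, edgeR adjusted p = 2.19e-06). Its level was 63.9 to 102 CPM in myoid and 380 to 543 CPM in non-myoid cells, whose part in this difference was not tested. In Sertoli cells it was 3.23, 4.48 and 5.51 CPM against 22.9, 34.5 and 39.6 CPM (log2 -2.92, SE 0.22, edgeR adjusted p = 1.73e-09), and the classes' responses differed by 2.14 (SE 0.25, edgeR adjusted p = 5.10e-06). The summed fetal Leydig markers moved with it, at 16.2, 46.1 and 19.4 CPM in mitotic and 463, 836 and 654 CPM in non-mitotic Sertoli cells. Without the cells that passed another marker rule the Sertoli difference was -0.33 (edgeR adjusted p = 0.459), and the difference in response was -0.45 (edgeR adjusted p = 0.408).

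**Figure D3:**
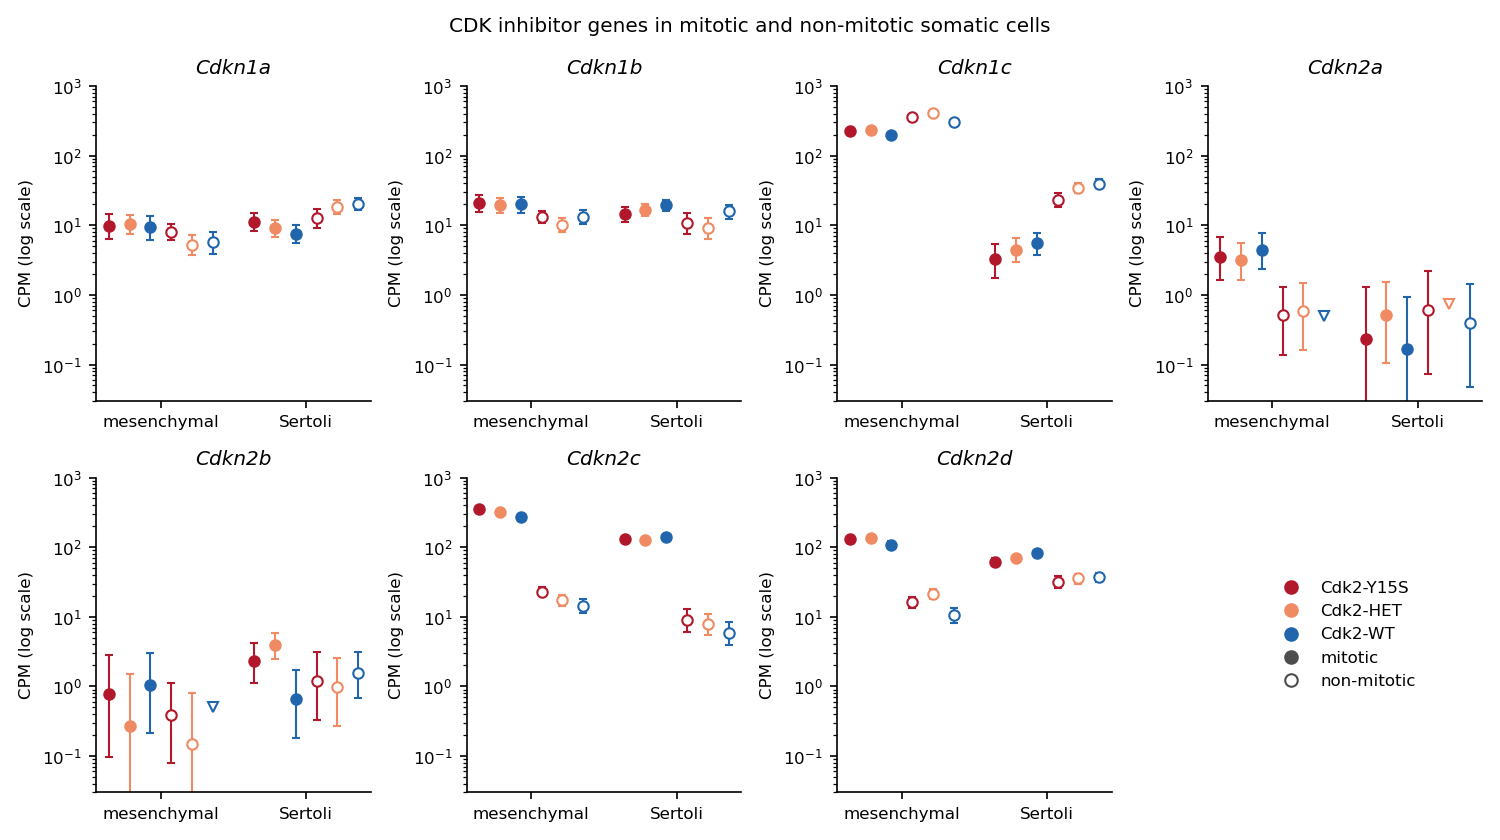
Levels in CPM (log axis) of the 7 genes in mitotic (at least 5 UMIs of 10 mitotic genes) and non-mitotic (0 UMIs) mesenchymal and Sertoli cells of the 3 libraries; each point is the sum over the cells of a library, bars are exact Poisson 95% intervals, and a triangle marks the limit that a count of 0 allows. Cdkn2c is higher in mitotic cells in 3 of 3 libraries of both classes (mesenchymal 275 to 348 against 14.3 to 22.8 CPM), and Cdkn1c is lower; without the Sertoli cells that pass another marker rule its Sertoli difference is -0.33 and does not pass the test.

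The genes known to act around the inhibitors moved in both directions with mitotic transcripts. Of 12602 genes, 20.3% were called higher and 19.1% lower in mitotic mesenchymal cells, and 11.1% higher and 13.3% lower in mitotic Sertoli cells. Of 9 partner kinases and cyclins tested (Cdk1, a gene of the mitotic rule, not among them), 6 rose and 2 fell in mitotic mesenchymal cells, among them the cyclins Ccna2 (log2 6.41) and Ccne1 (3.19) higher, with medians of 0.89 over the list and -0.01 over all genes. In Sertoli cells 3 rose and 2 fell, with Ccna2 at 5.30 and Ccne2 at 2.95 (medians 0.07 and -0.03). Of 9 genes of inhibitor breakdown, 3 rose and 1 fell in each class, among them Skp2 (1.56 mesenchymal, 0.86 Sertoli) and Dtl (1.33 and 1.60), which direct the destruction of Cip/Kip proteins. Of 14 other p53 targets, 2 rose and 5 fell in mesenchymal cells, and 6 fell in Sertoli cells, with medians of -0.24 and -0.29.

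In germ cells, the comparison of genotypes asked how the inhibitors stood when CDK2 lacked the tyrosine. With 1 library per genotype there is no replicate check and no test: the intervals below cover counting error only, and animal, dissection and library cannot be told apart from genotype. In the deposited germ cells, Cdkn1a and Cdkn1c stood lower in Cdk2-Y15S than in Cdk2-WT and were the 2 members past 2-fold, where 3.81% of 9736 genes with at least 20 UMIs were past 2-fold higher and 8.54% lower. Cdkn2a stood higher, short of 2-fold. The median log2 ratio was -0.54 over the 6 members with enough UMIs and -0.05 over all genes.

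Cdkn1c had 36 UMIs in Cdk2-Y15S germ cells, or 25.7 CPM (95% interval 18.0 to 35.6), and 88 UMIs in Cdk2-WT germ cells, or 72.5 CPM (58.2 to 89.4), a log2 ratio of -1.49 (-2.10 to -0.92). Cdkn1a had 51 UMIs, or 36.4 CPM (27.1 to 47.9), in Cdk2-Y15S and 115 UMIs, or 94.8 CPM (78.3 to 114), in Cdk2-WT, a log2 ratio of -1.37 (-1.89 to -0.89). Neither pair of intervals overlapped. With an assumed 10% of each sum subtracted as ambient RNA in the profile of its whole library, the Cdkn1c ratio was -2.72. This subtraction removed a larger part of the 36 Cdk2-Y15S UMIs than of the 88 Cdk2-WT UMIs, so the ratio rested on fewer mutant UMIs. The part of ambient RNA in the Cdkn1c levels was not tested. Cdkn2a had 216 CPM (193 to 242) in Cdk2-Y15S and 141 CPM (121 to 164) in Cdk2-WT, a log2 ratio of 0.62 (0.34 to 0.90), so the ratio of Cdkn2a to either Cip/Kip gene was higher in the mutant cells.

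The shares of cells followed the same order. Cdkn1c was seen in 33.3% of Cdk2-Y15S and 60.9% of Cdk2-WT germ cells, Cdkn1a in 33.3% and 47.8%, and Cdkn2a in 97.2% and 84.1%, at a median of 18461.5 and 16653 UMIs a cell. The exact binomial 95% intervals overlapped for Cdkn1a (22.7% to 45.4% and 35.6% to 60.2%) and Cdkn2a (90.3% to 99.7% and 73.3% to 91.8%). Those of Cdkn1c did not (22.7% to 45.4% and 48.4% to 72.4%). With each cell thinned to 10000 UMIs the shares were 19.4% and 46.4% for Cdkn1c, 22.2% and 43.5% for Cdkn1a, and 81.9% and 71.0% for Cdkn2a. The intervals again overlapped for Cdkn1a and Cdkn2a and not for Cdkn1c. Without the germ cells that had at least 5 collagen UMIs, the log2 ratio was -2.33 for Cdkn1a, -1.56 for Cdkn1c and 0.56 for Cdkn2a.

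The remaining members were near or under what the depth could show. Cdkn2b had 9.28 CPM in Cdk2-Y15S and 17.3 CPM in Cdk2-WT germ cells, a log2 ratio of -0.88 (-2.02 to 0.17). Cdkn2c had 10.7 and 12.4 CPM (log2 -0.21, -1.34 to 0.93), and Cdkn2d 16.4 and 18.1 CPM (log2 -0.15, -1.05 to 0.77). Cdkn1b had 3 UMIs in Cdk2-Y15S and 10 in Cdk2-WT, under the minimum of 20, and so no call. No difference in Cdkn2b, Cdkn2c or Cdkn2d was detectable at this depth.

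The submitters' clusters divided the germ cells by genotype, so these ratios compare different clusters. Cluster D (37 cells) and cluster E (21 cells) held Cdk2-Y15S cells alone and cluster A (36 cells) Cdk2-WT cells alone, while B (6 and 28 cells) and C (8 and 5 cells) held both. All genes of these cells may have served to make the clusters, so the values by cluster are a description. Cdkn1a was lowest in E, at 17.4 CPM (7.96 to 33.1), and D, at 25.4 CPM (14.5 to 41.3), and stood at 115 CPM (66.8 to 183) in Cdk2-Y15S cells of B, 85.7 CPM (63.0 to 114) in Cdk2-WT cells of B and 109 CPM (84.4 to 139) in A. In cluster B the ratio of Cdk2-Y15S to Cdk2-WT cells in Cdkn1a was 0.45 (-0.47 to 1.25), so no lower level was seen there. The Cdk2-Y15S level rested on 17 UMIs from 4 of 6 cells, 12 of them in 1 cell. Without the richest cell of each library it was 45.7 CPM (14.8 to 107) in Cdk2-Y15S and 70.5 CPM (49.6 to 97.1) in Cdk2-WT, a log2 ratio of -0.51 (-2.33 to 0.73). When clusters B and C were given equal weight, the Cdkn1a ratio was 0.64, turned in direction, and 0.23 without those richest cells, with cluster C resting on 9 and 3 UMIs. Under equal weight Cdkn1c was -0.73 and Cdkn2a 0.21, with 0 members past 2-fold. The Cdkn1c value rested on 2 and 3 Cdk2-Y15S UMIs in B and C.

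Cdkn1c was highest in cluster A. It stood at 114 CPM (88.9 to 145) there, in 28 of 36 cells, against 31.0 CPM (18.1 to 49.6) in Cdk2-WT cells of B, in 11 of 28 cells, a log2 ratio of 1.85 (1.10 to 2.74) between these clusters of the same library. The Cdk2-Y15S cells had 34.8 CPM (20.6 to 55.0) in E, 20.7 CPM in D, 13.5 CPM in B and 28.0 CPM in C, near the level of the Cdk2-WT cells of B. Cluster A also stood apart in the summed mitotic genes, at 343 CPM against 1548 to 2001 CPM in the others, and 15 of its 36 cells had at least 5 mitotic UMIs, while all cells of the other clusters did. Whether Cdkn1c differed between genotypes among cells like those of cluster A cannot be told, since Cdk2-Y15S had none.

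Cdkn2a was highest in the clusters of Cdk2-Y15S alone, at 255 CPM (214 to 303) in E and 213 CPM (179 to 252) in D, against 148 CPM (119 to 182) in A. Within cluster B it was 148 CPM in Cdk2-Y15S and 137 CPM in Cdk2-WT cells (log2 0.14, -0.64 to 0.82), and within cluster C 140 and 114 CPM. Clusters E and D did not differ beyond counting error in Cdkn2a (log2 0.26 E over D, -0.10 to 0.62), Cdkn1c (0.74, -0.36 to 1.90) or Cdkn1a (-0.51, -1.91 to 0.72). Among the low members, the 5 Cdk2-WT cells of cluster C held 8 Cdkn2c UMIs (114 CPM) and 7 Cdkn2d UMIs (99.3 CPM), each from 2 cells. Mesenchymal markers summed to 1206 CPM in those cells and 1873 CPM in the Cdk2-Y15S cells of C, against 130 to 334 CPM in the other clusters; their part in these values was not tested.

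**Figure D4:**
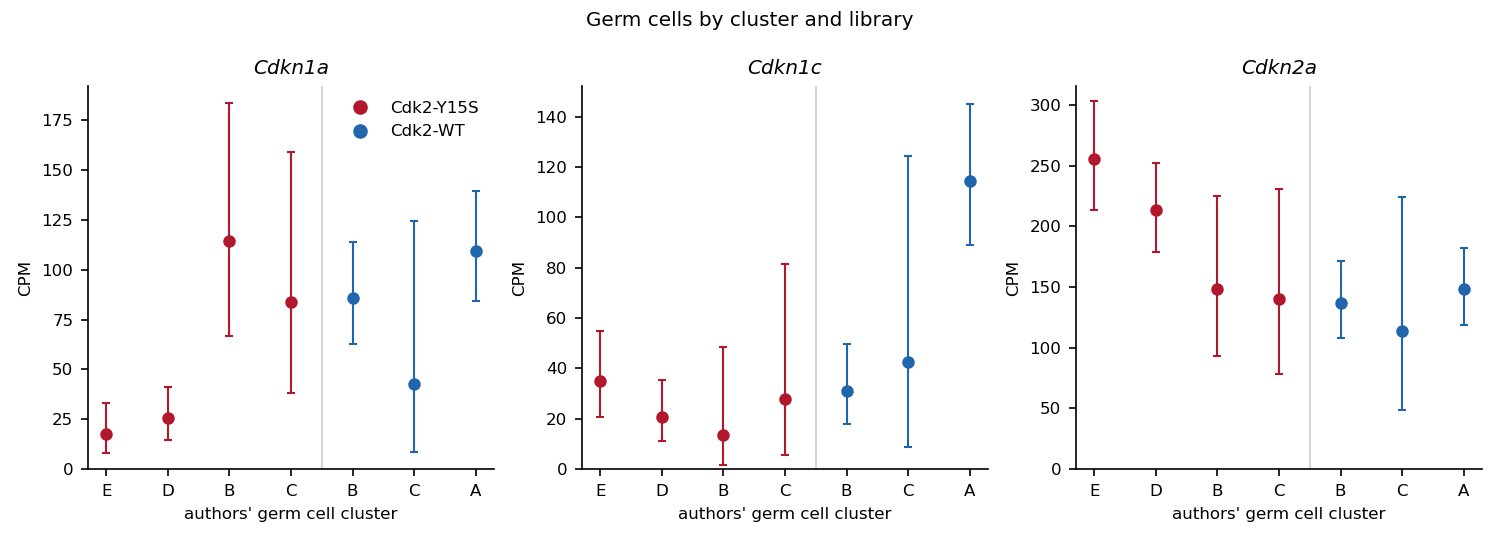
Levels in CPM of Cdkn1a, Cdkn1c and Cdkn2a in the deposited germ cells by cluster and library (Cdk2-Y15S left, Cdk2-WT right of the line); bars are exact Poisson 95% intervals, counting error only. Cdkn1a is low in clusters E and D (17.4 and 25.4 CPM) and Cdkn1c high in cluster A (114 CPM), while Cdkn2a is above 110 CPM in every cluster.

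The germ marker cells, chosen by 1 rule in all 3 libraries, put the heterozygote beside both homozygotes. They include all the deposited germ cells, so their Cdk2-Y15S ratios are not a separate measurement. Cdk2-HET stood nearer to Cdk2-WT than Cdk2-Y15S did in Cdkn1a and Cdkn1c. The log2 ratio to Cdk2-WT was -0.05 (-0.47 to 0.35) for Cdkn1a and 0.31 (-0.11 to 0.71) for Cdkn1c, while that of Cdk2-Y15S was -1.48 (-1.95 to -1.04) and -1.49 (-2.004 to -1.02). For Cdkn2a the ratio was 0.53 (0.29 to 0.78) in Cdk2-Y15S and 0.33 (0.02 to 0.62) in Cdk2-HET. Both mutants are set against the same Cdk2-WT cells. In Cdk2-Y15S 2 members were past 2-fold, both lower, where 3.83% of 10374 genes were past it higher and 9.22% lower.

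In Cdk2-HET germ marker cells 1 member was past 2-fold, where 2.57% of 9824 genes were past it higher and 1.71% lower. This was Cdkn1b, from 4 UMIs in Cdk2-HET and 16 in Cdk2-WT cells, with a log2 ratio of -1.05 whose interval ran from -3.22 to 0.45. In Cdk2-Y15S germ marker cells Cdkn1b had 3 UMIs, a log2 ratio to Cdk2-WT of -2.40 (-5.00 to -0.78), but the pair held fewer than 20 UMIs and was not called. Cdk2-HET cells had a median of 12495 UMIs and mesenchymal markers of 617 CPM, against 539 CPM in Cdk2-Y15S and 176 CPM in Cdk2-WT germ marker cells. Their part in these ratios was not tested. The mesenchymal cells themselves held 270 to 349 CPM of Cdkn1c.

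Of the lists of genes around the inhibitors, the p53 targets had the lowest median in Cdk2-Y15S germ cells, where the clusters differed between the genotypes as described for Cdkn1a. In the deposited germ cells, 3.81% of 9736 genes were past 2-fold higher and 8.54% lower, with a median log2 ratio of -0.05. Of 13 p53 targets, 0 were past 2-fold higher and 2 lower, with a median log2 ratio of -0.53. These were Pmaip1, a pro-apoptotic gene (44.2 CPM in Cdk2-Y15S, 183 CPM in Cdk2-WT, log2 -2.04, -2.48 to -1.64), and Zmat3 (3.57 and 17.3 CPM, log2 -2.17, -4.04 to -0.83). In Cdk2-HET germ marker cells the median of the same list was -0.06, and Pmaip1 was at 185 CPM against 175 CPM in Cdk2-WT. Of 8 genes of inhibitor breakdown, 1 was past 2-fold: Cks1b, a partner of Skp2 in the destruction of Cdkn1b protein, with 435 CPM in Cdk2-Y15S and 210 CPM in Cdk2-WT (log2 1.05, 0.83 to 1.26). No partner kinase or cyclin of 10, transcriptional regulator of 16, neighbour of Cdkn1c in its imprinted region of 8 or immediate early gene of 5 was past 2-fold, with medians of 0.16, -0.12, 0.05 and 0.08.

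In Sertoli cells 1 member was past 2-fold in Cdk2-Y15S, where 3.23% of 12367 genes were past it higher and 1.76% lower: Cdkn1c, at 10.7 CPM in Cdk2-Y15S and 21.6 CPM in Cdk2-WT (log2 -1.01, -1.33 to -0.71). Cdk2-HET lay between, at 14.5 CPM (log2 -0.57, -0.83 to -0.32), and 0 members were past 2-fold there, against 1.52% of 12483 genes higher and 1.24% lower. Without the cells that also passed another marker rule the ratios were -0.84 in Cdk2-Y15S and -0.42 in Cdk2-HET, and 0 members were past 2-fold. Summed Leydig markers in the Sertoli cells were 186, 359 and 367 CPM in Cdk2-Y15S, Cdk2-HET and Cdk2-WT.

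Cdkn1b, the inhibitor known in mice for restraining Sertoli cell division, was lower in both mutants, at 11.7 CPM in Cdk2-Y15S and 12.04 CPM in Cdk2-HET, against 15.7 CPM in Cdk2-WT. The log2 ratios were -0.42 (-0.74 to -0.11) and -0.38 (-0.67 to -0.10), both against the same Cdk2-WT cells. In mitotic cells they were -0.44 (-0.92 to 0.01) and -0.23 (-0.63 to 0.17), with intervals that included 0. In non-mitotic cells they were -0.53 (-1.15 to 0.05) and -0.78 (-1.39 to -0.21). Over the whole class, the interval of Cdkn2d lay below 0 in Cdk2-Y15S (log2 -0.29, -0.46 to -0.13) and included 0 in Cdk2-HET (-0.06, -0.21 to 0.08). In mitotic Sertoli cells it lay below 0 in both, at -0.41 (-0.63 to -0.19) in Cdk2-Y15S and -0.21 (-0.40 to -0.02) in Cdk2-HET. Cdkn2c showed no difference beyond counting error, with ratios of 0.01 (-0.13 to 0.16) and -0.04 (-0.18 to 0.10), nor did Cdkn1a, with ratios of -0.06 (-0.39 to 0.26) and 0.24 (-0.04 to 0.52). By state, the Cdk2-Y15S ratio of Cdkn1a was 0.59 (-0.02 to 1.21) in mitotic and -0.67 (-1.23 to -0.15) in non-mitotic Sertoli cells, and the difference between the states was not tested.

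Cdkn2b had 20 and 32 UMIs in Cdk2-Y15S and Cdk2-HET Sertoli cells, against 25 in Cdk2-WT, with ratios of 0.24 (-0.70 to 1.14) and 0.49 (-0.31 to 1.31). In mitotic Sertoli cells it had 10 UMIs in Cdk2-Y15S and 23 in Cdk2-HET, against 4 in Cdk2-WT. The Cdk2-HET ratio there was 2.43 (1.02 to 4.56), the 1 member past 2-fold, where 1.76% of 11126 genes were past it higher and 0.827% lower. Cdkn2a had 4 Sertoli UMIs in each library, too few to show a difference of less than several fold.

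In mesenchymal cells 0 members were past 2-fold in either mutant, against 2.62% of 13063 genes higher and 1.2% lower in Cdk2-Y15S, and 1.19% of 13056 genes higher and 0.98% lower in Cdk2-HET. Cdkn1c was slightly higher in both, with log2 ratios of 0.24 (0.17 to 0.30) in Cdk2-Y15S and 0.37 (0.31 to 0.43) in Cdk2-HET. By marker rule it went in opposite directions. In non-myoid mesenchymal cells the ratio was 0.24 (0.16 to 0.31) in Cdk2-Y15S and 0.51 (0.44 to 0.59) in Cdk2-HET, and in myoid cells -0.67 (-0.89 to -0.45) and -0.46 (-0.66 to -0.27).

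Cdk2-HET mesenchymal cells also had more of Cdkn2d, at 47.5 CPM against 35.8 CPM in Cdk2-WT (log2 0.41, 0.24 to 0.58), and of Cdkn2c, at 93.6 against 80.7 CPM (0.21, 0.10 to 0.33), while Cdk2-Y15S had 36.2 and 80.7 CPM. Within states both mutants stood above Cdk2-WT in Cdkn2d. The ratio was 0.25 (0.02 to 0.48) in Cdk2-Y15S and 0.29 (0.09 to 0.50) in Cdk2-HET mitotic cells. In non-mitotic cells it was 0.61 (0.17 to 1.07) in Cdk2-Y15S and 1.02 (0.59 to 1.48) in Cdk2-HET, the 1 member past 2-fold, where 1.7% of 11794 genes were past it higher and 1.03% lower in Cdk2-HET. The Cdkn1a ratio of Cdk2-HET, 0.81 (0.45 to 1.18), rested on few cells: 11 cells with at least 5 UMIs held 155 of 204 UMIs in Cdk2-HET, and 4 cells held 49 of 94 UMIs in Cdk2-WT. Within states, Cdkn2c was higher in Cdk2-Y15S than in Cdk2-WT mesenchymal cells, by 0.34 (0.20 to 0.48) in mitotic and 0.67 (0.29 to 1.06) in non-mitotic cells, although the ratio over the whole class was 0.00 (-0.12 to 0.12). Mitotic cells were 310 of 2464 mesenchymal cells in Cdk2-Y15S and 386 of 2230 in Cdk2-WT.

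Few genes around the inhibitors passed 2-fold in somatic cells. In Sertoli cells these were the p53 target Phlda3 in Cdk2-Y15S (log2 1.21, 1.04 to 1.39), and in Cdk2-HET the cyclin Ccnd1 (-1.18, -2.11 to -0.36), the antiproliferative gene Btg2 (-1.37, -1.45 to -1.29) and the immediate early genes Fos (-1.27, -1.32 to -1.22) and Junb (-1.18, -1.23 to -1.12). In mesenchymal cells they were Ccne1 (-1.12, -1.42 to -0.83) and Gdf15 (-1.15, -1.78 to -0.56) in Cdk2-Y15S and Trp53inp1 in Cdk2-HET. No median of a list went beyond -0.58, the value of the 6 immediate early genes in Cdk2-HET Sertoli cells, which respond to tissue dissociation.

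**Figure D5:**
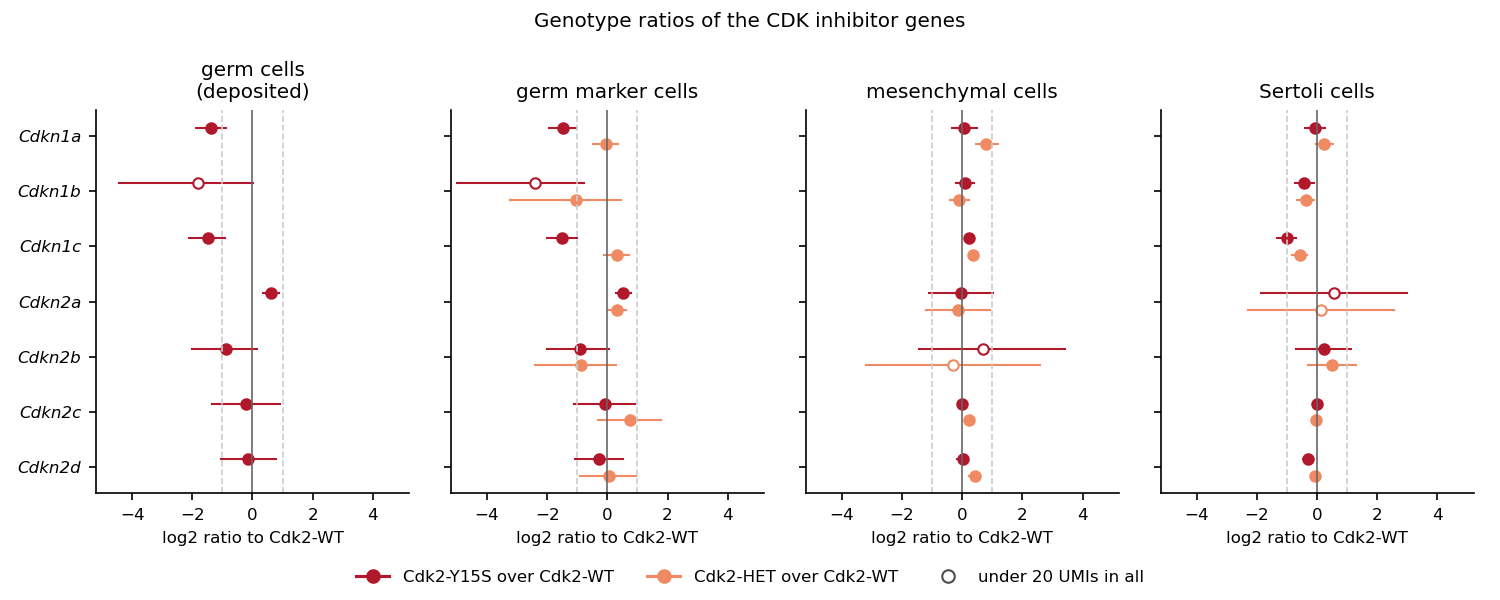
Log2 ratios of Cdk2-Y15S and Cdk2-HET to Cdk2-WT for the 7 genes in each cell class, with 95% intervals that cover counting error only; dashed lines mark 2-fold and open points fewer than 20 UMIs in all. Cdkn1a and Cdkn1c lie past 2-fold lower in Cdk2-Y15S germ cells (-1.37 and -1.49 in the deposited cells) and within it in Cdk2-HET germ marker cells.

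The genes whose level most resembled that of each member were named by Pearson's r over 13 class sums among 12755 genes, as a description of likeness. The sums share libraries, depth and the divide between germ and somatic cells. For Cdkn2a they were Rec114, Ddx18 and Zbtb16 (0.996 each), for Cdkn2b Pomc (0.977), Urb1 (0.966) and Aldoc (0.965), and for Cdkn1a they included Shroom3 (0.972) and Acad11 (0.967). For Cdkn1c they were Kcnd3os (0.959), Sncaip (0.958) and B830012L14Rik (0.958). For Cdkn2c they were Tmco1 (0.970), Tmem176a (0.969) and Gstt1 (0.969), for Cdkn2d Zfp654 (0.938), Slc29a3 (0.932) and Ttc5 (0.919), and for Cdkn1b Tbl1x (0.931) led. Cdkn2c and Cdkn2d resembled each other at 0.836.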

How the data were processed

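Values are UMI counts per gene and cell, deposited by the authors as a matrix for all cells and a table of germ cells, made with Cell Ranger 2.1.0 and Seurat against mm10, per the submitters' processing notes. No source used here names the annotation of the counting step. The germ cell table held 6 of the 7 members (not Cdkn1b). All 10439 of its genes with a unique symbol equalled the matrix, so all values come from the matrix. Of 27998 gene IDs, 27645 matched GENCODE M21. The members and lists were chosen with earlier results of these data known.

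Counts were summed per class and library and divided by all UMIs of those cells (CPM). Sertoli cells had at least 3 UMIs of their 4 genes and at most 2 of the 4 collagen and matrix genes, and mesenchymal cells at least 5 of those, less germ cells in both. Cells of the Leydig, endothelial or macrophage rule had at least 5 UMIs of 4 markers with at least 2 genes detected. Intervals are exact Poisson for CPM and conditional exact binomial for ratios, both at 95%, with 0.5 UMI added to each sum for log2 ratios. Barcodes share no replicate, so intervals and limits (3 counts for a count of 0) cover counting error only. A ratio was past 2-fold at an absolute log2 value of at least 1 with at least 20 UMIs in both sums together.

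Class and mitotic contrasts used edgeR 4.0.16 in R 4.3.3 (quasi-likelihood test, TMM scaling, filterByExpr, library as a block, Benjamini-Hochberg over all genes, threshold 0.05), on 9 class sums and on 12 sums by mitotic state with its interaction with class. The library pairs the sums because its classes come from the same suspension. Genes that defined the compared classes or states were left out of the counts of calls. The p-values measure the spread between 3 libraries of different genotype. The scripts were tested on simulated data. DESeq2 1.42.0 was an alternative. Scrublet in scanpy 1.11.5 marked 66, 94 and 88 doublets in Cdk2-Y15S, Cdk2-HET and Cdk2-WT (1.50%, 1.90% and 1.74%), 2, 0 and 2 of them deposited germ cells. These cells were kept and left out as an alternative. Other alternatives changed the cell filter, scaling, added UMI, minimum, gates and libraries. Named genes are the 7 members, list genes past the fold or the test (at most 4 per list and comparison, by size) and the 3 genes most like each member. Antisense transcripts overlap Cdkn1a and Cdkn1c in the annotation but are not in the matrix. A gene named by its likeness to Cdkn1a is not reported here.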

Additional observations from a re-analysis of the deposited data

Results flagged for a closer look

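Cdkn1c went in opposite directions between cell classes under the same comparison of genotypes. With 1 library per genotype these differences were not tested. Cdk2-Y15S over Cdk2-WT was -1.49 on the log2 scale in the deposited germ cells and -1.49 in the germ marker cells, which include them all. It was -1.01 in Sertoli cells, against 0.24 in mesenchymal cells. Cdk2-HET over Cdk2-WT was -0.57 in Sertoli cells, against 0.37 in mesenchymal cells. Within the mesenchyme, Cdk2-Y15S over Cdk2-WT was -0.67 in myoid cells, against 0.24 in the non-myoid cells, and Cdk2-HET over Cdk2-WT was -0.46, against 0.51. In Sertoli cells without those of another marker rule the ratios were -0.84 for Cdk2-Y15S and -0.42 for Cdk2-HET.

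The response to mitotic state differed between mesenchymal and Sertoli cells by a test of the difference itself in 3 members. Of all 12602 genes, 8.89% were called higher and 2.33% lower in this difference. The mesenchymal minus the Sertoli response was 1.54 for Cdkn1a (edgeR adjusted p = 0.00273), 2.14 for Cdkn1c (edgeR adjusted p = 5.10e-06) and 1.88 for Cdkn2d (edgeR adjusted p = 3.68e-06). The Cdkn1a difference missed the threshold without Cdk2-HET (1.33, edgeR adjusted p = 0.0843) and without Cdk2-WT (1.22, edgeR adjusted p = 0.0616). Without the somatic cells of another marker rule the Cdkn1c difference turned to -0.45 and did not pass the test (edgeR adjusted p = 0.408).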

How the results depend on the processing

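Of 511 genotype ratios of members under other settings, 489 stayed within the 95% interval of the reported ratio. The sign changed in 52, and in 50 of these the reported interval included 0. For the germ cells of Cdk2-Y15S over Cdk2-WT, equal weight of clusters B and C gave 0.64 for Cdkn1a (0.23 without the richest cells of B, added after seeing the data), 0 members and 752 genes past 2-fold, in place of 2 and 1202. Subtraction of ambient RNA at an assumed 10% gave -2.72 for Cdkn1c there. A minimum of 50 UMIs gave 550 genes there, and 645 in germ marker cells of Cdk2-Y15S, 73 in those of Cdk2-HET (642 by the mean of per-cell CPM, 420 in the report's setting), 369 and 173 in Sertoli cells and 258 and 127 in mesenchymal cells of Cdk2-Y15S and Cdk2-HET. The 1 member past 2-fold in Cdk2-HET germ marker cells became 0 with the stricter cell filter, without doublets, with 1 UMI added, with 50 UMIs and after thinning. The 1 in Cdk2-Y15S Sertoli cells became 0 without doublets, by the mean of per-cell CPM, after thinning and without cells of another marker rule, and 2 with germ cells left in. The 0 in Cdk2-HET Sertoli cells became 1 with a stricter gate (Cdkn1c, -1.02), and the 0 in Cdk2-Y15S mesenchymal cells became 1 with germ cells left in (Cdkn2a, 2.13). Without the library as a replicate block, mitotic Sertoli calls were 792 higher and 799 lower, mitotic mesenchymal calls 1459 lower, and interaction calls 498 higher and 63 lower; among members the block changed no call but that of Cdkn1b in Sertoli cells. No paired analysis was possible for the genotypes because each is 1 library. DESeq2 gave 886 higher mitotic Sertoli and 149 lower interaction calls, no low-count filter 700 lower interaction calls, and total UMIs 3662 lower calls of germ over mesenchymal cells. Leaving out a library in turn gave 846 to 1160 higher and 897 to 1426 lower mitotic Sertoli calls, 1533 to 1856 lower mitotic mesenchymal calls, 593 to 779 higher and 88 to 167 lower interaction calls, and 2856 to 4670 lower calls of mesenchymal over Sertoli cells. Without somatic cells of another marker rule, chosen after seeing the data, the Cdkn1c interaction turned to -0.45 (edgeR adjusted p = 0.408). Of the other class and mitotic ratios of members, 394 kept their call, 11 lost and 2 gained it. The causes were not tested. Cdkn1b, Cdkn2b, Cdkn2c and Cdkn2d in germ cells are limited by depth.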
